A study of Mus musculus with 5 samples.

Results

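The type 1 program examined here comprised 7 genes, Ifng, Il12rb1, Il12rb2, Cxcr3, Tbx21, Eomes and Runx3, of 21938 protein-coding genes annotated on the chromosomes with peaks. For each gene, the peaks of acetylated lysine 27 on histone H3 (H3K27ac) that overlapped its span in GENCODE M21 (mouse build mm10), widened by 50 kb on either side, were taken as its members. This rule, which used positions and not signal, gave 143 of 124158 peaks. Of these, 113 reached 10 counts in 2 or more libraries and were tested, and 30 did not.

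Interferon gamma, the product of Ifng, is the signature cytokine of type 1 immunity. It is induced when interleukin 12 binds a receptor made of the Il12rb1 and Il12rb2 subunits and activates Stat4, and its transcription is driven by the T-box factors T-bet (encoded by Tbx21) and Eomes together with Runx3. T-bet also drives Cxcr3, the chemokine receptor that directs cells to sites of type 1 inflammation, and some regulatory T (Treg) cells use the same genes while restraining type 1 responses. H3K27ac marks active promoters and enhancers.

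H3K27ac was mapped by CUT&Tag, in which an antibody tethers a transposase to chromatin that carries the mark, in Treg cells sorted from the large intestine as CD3+CD4+Foxp3-YFP+. The Ctrl mice (Foxp3CreSetd2flox/+) had 1 floxed and 1 normal allele of Setd2, which encodes the methyltransferase of H3K36me3, and the KO mice (Foxp3CreSetd2flox/flox) had 2 floxed alleles. In both, a Cre-YFP driven by Foxp3 was to delete the floxed alleles in cells that express Foxp3, and H3K27ac counts do not report on that deletion. All mice were C57BL/6 and 2 weeks old, and the Ctrl cells were heterozygous for Setd2 and not wild type. Each genotype had 2 libraries of 60000 cells, each pooled from 3 to 5 mice of both sexes. An IgG library named in the labels was not analysed here.

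Library totals lay between 2395002 and 4712473 counts in peaks, with KO replicate 2 the deepest. Levels are given in CPM, the count scaled to library size with TMM factors. In sums over the promoter (3 kb either side of a transcription start site, or TSS) and gene body peaks, all 5 Treg marker genes, Foxp3, Il2ra, Ctla4, Ikzf2 and Tnfrsf18, had peaks, with a summed level of 2253 to 2438 CPM in Ctrl and 2664 to 3162 CPM in KO. Of the T cell markers, all 4 had peaks (661 to 1024 CPM in Ctrl, 829 to 1190 CPM in KO). Neither CD8 T cell marker had a peak of its own, although the start of Cd8b1 lay under a peak shared with Smyd1. Of the natural killer and innate lymphoid list, 2 of 4 genes had peaks (14.6 to 17.6 CPM in Ctrl and 17.5 to 27.9 CPM in KO) and Ncr1 and Klri2 had none. Most of that sum was at Klrb1c, which had a peak over its TSS, with 17.2 and 13.7 CPM in Ctrl and 23.8 and 16.8 CPM in KO. B cell, myeloid and epithelial markers had peaks at 3, 2 and 4 of 4 genes, with overlapping ranges of 14.5 to 30.1 and 20.4 to 27.9 CPM, 99.1 to 111 and 98.0 to 131 CPM, and 43.4 to 55.4 and 47.2 to 69.3 CPM, in Ctrl and KO respectively. Most of the myeloid sum was at Spi1, with 84.1 and 92.6 CPM in Ctrl and 90.5 and 119 CPM in KO. The epithelial, B cell and myeloid genes had no peak over a TSS, and Ms4a1, Lyz2 and Itgam had none at all. The Treg sum was higher in both KO libraries than in both Ctrl libraries, and its part in the differences below was not tested.

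No member feature passed the adjusted threshold between genotypes. By the quasi-likelihood test of edgeR with Benjamini-Hochberg adjustment, 0 of 7 windows had an adjusted p under 0.05, against 0% of 17717 windows. The same was true of 0 of 113 member peaks, against 0.00134% of 74550 peaks, and of 0 of 6 sums over promoter and gene body peaks, against 0% of 12731 genes. At an unadjusted p under 0.05 these counts were 0 windows (1.94% of all), 3 peaks (4.24% of all) and 0 sums (3.29% of all), and DESeq2 gave 0 members of each kind at either threshold. In what follows, differences are log2 fold changes of KO against Ctrl with their standard error (SE). Because the cells were measured in bulk, a change in the share of cells with an active locus and a change in acetylation per cell cannot be told apart.

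**Figure D1:**
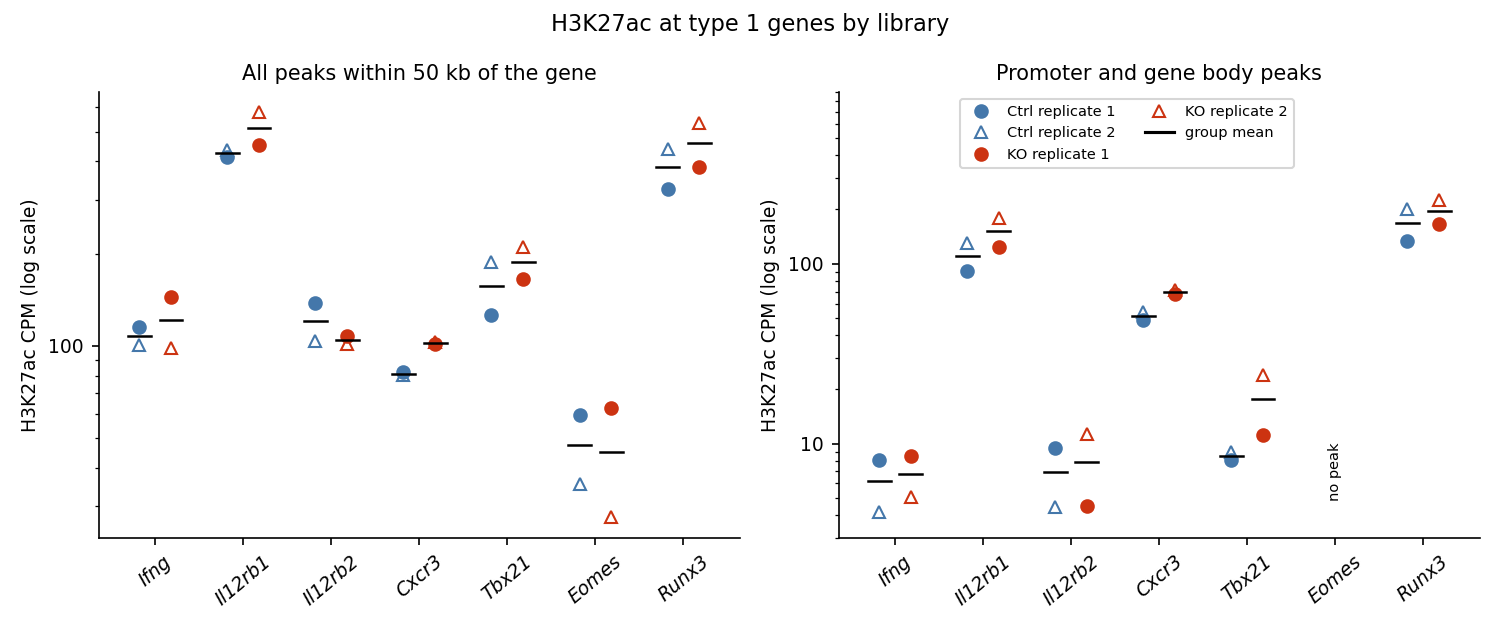
H3K27ac CPM (log axis) of each of the 7 genes in the 4 libraries, over all peaks within 50 kb of the gene (left) and over its promoter and gene body peaks (right), with circles for replicate 1, triangles for replicate 2 and bars for the mean of each genotype. Cxcr3 is the gene at which both KO libraries stand clear of both Ctrl libraries in both panels, while Ifng, Il12rb2 and Eomes overlap, and Eomes has no peak in the right panel.

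Ifng (ENSMUSG00000055170.4, chromosome 10, 118441046 to 118445892, plus strand) had no other protein-coding gene in its window and 18 peaks, all of which had Ifng as the nearest gene. Acetylation around this gene lay away from the promoter. The 3 peaks within 3 kb of the TSS held 5.57% of the window's CPM on average over the libraries, the 5 upstream peaks 41.0% and the 10 downstream peaks 53.4%. The peak over the TSS itself, which spanned 118441030 to 118441316, had 6, 0, 9 and 4 counts in Ctrl 1, Ctrl 2, KO 1 and KO 2, and was below the limit for testing. The promoter sequence (300 bases from RefSeq on GRCm38.p6, chr10:118440796-118441095, plus strand) is shown because only its last 66 bases were inside a peak. Capitals mark a match to the STAT motif TTCNNNGAA, which lay at its upstream end and outside the peak.
Ifng promoter: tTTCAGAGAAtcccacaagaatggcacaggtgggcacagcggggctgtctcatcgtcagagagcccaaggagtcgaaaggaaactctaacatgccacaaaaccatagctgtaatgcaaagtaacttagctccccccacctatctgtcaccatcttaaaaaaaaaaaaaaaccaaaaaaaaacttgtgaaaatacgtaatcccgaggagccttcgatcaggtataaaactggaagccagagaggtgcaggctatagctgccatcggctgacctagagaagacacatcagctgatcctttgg

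The window of Ifng held 115 and 100.3 CPM in Ctrl and 145 and 98.2 CPM in KO. KO 1 was the highest and KO 2 the lowest of the 4, so the genotypes overlapped. The difference was 0.17 (SE 0.26, 95% interval -0.43 to 0.77), and it was -0.15 without KO replicate 1. Over the 3 promoter peaks, which here were all the peaks assigned to the gene itself, the levels were 8.14, 4.17, 8.57 and 5.03 CPM in the same order. Replicate 1 was the higher library in both genotypes, and the difference was 0.15 (SE 0.74), with -0.27 without Ctrl replicate 2 and -0.29 without KO replicate 1.

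The highest Ifng peak lay 22.3 kb upstream of the TSS (118417845 to 118419736), between genes. It held 27.6 and 25 CPM in Ctrl and 35.8 and 19.6 CPM in KO, more than 88.4% of all tested peaks, and the KO libraries lay on either side of the Ctrl libraries. The next was 18.7 kb downstream (118458715 to 118460714), with 17.6 and 19.6 CPM in Ctrl and 16.8 and 18.9 CPM in KO. The libraries of the genotypes overlapped at both distal peaks, with differences of 0.06 (SE 0.36) upstream and -0.06 (SE 0.41) downstream. A small peak 8.8 kb downstream, named after its values were seen, had the largest fold at this locus, with 1 and 3 counts in Ctrl and 13 and 11 counts in KO. Its log2 fold change was 2.34 (SE 1.45, unadjusted p = 0.107 in edgeR). It passed the count limit through its KO libraries alone.

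The 2 subunits of the interleukin 12 receptor differed in where they were marked. Il12rb1, the subunit shared with the interleukin 23 receptor (ENSMUSG00000000791.9, chromosome 8, 70808449 to 70821424, plus strand), was covered at its start by 1 broad domain of 8915 bases (70803756 to 70812670) that also reached into an intron of Mast3. By CPM, not scaled to width, this domain was the highest peak of all 7 loci and exceeded 99.1% of tested peaks. Per kb it held 13.0 CPM, above 53.5% of the promoter sums of 10537 genes. It held 75.6 and 114 CPM in Ctrl and 109 and 166 CPM in KO. KO 1 lay just below Ctrl 2, so the genotypes overlapped, and replicate 2 was the higher library of each. The difference was 0.53 (SE 0.27), with an unadjusted p of 0.0496 and an adjusted p of 0.998 in edgeR. With 1 library left out it was 0.26 (Ctrl replicate 1), 0.87 (Ctrl replicate 2), 0.79 (KO replicate 1) and 0.16 (KO replicate 2). With all libraries and a loess offset on abundance it was 0.30 (unadjusted p = 0.204 in edgeR). Over the promoter and gene body peaks of Il12rb1 the levels were 90.5 and 129 CPM in Ctrl and 124 and 179 CPM in KO, which again overlapped, a difference of 0.46 (SE 0.28). It was 0.14 without KO replicate 2, 0.22 without Ctrl replicate 1 and 0.75 without Ctrl replicate 2.

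The window of Il12rb1 was crowded, with 7 other protein-coding genes and 31 peaks, and 28.5% of its counts lay in peaks nearest to Il12rb1. It held 415 and 434 CPM in Ctrl and 453 and 579 CPM in KO. Both KO libraries were above both Ctrl libraries, and the difference was 0.28 (SE 0.22). It was 0.062 without KO replicate 2, 0.43 without KO replicate 1 and 0.12 with a loess offset on abundance. The second highest peak, 31.5 kb upstream over exons of Pik3r2 and Mast3, held 67.9, 51.2, 55.5 and 81.7 CPM in the 2 Ctrl and then the 2 KO libraries and was nearest to Pik3r2. The small peaks in the gene body of Il12rb1 summed to 14.9 and 15.5 CPM in Ctrl and 15.3 and 12.9 CPM in KO.

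Il12rb2, the subunit that sets the interleukin 12 receptor apart from that of interleukin 23 (ENSMUSG00000018341.12, chromosome 6, 67291318 to 67376188, minus strand), had no peak within 3 kb of either of its annotated starts, whereas 57.6% of protein-coding genes had one. Its promoter and gene body sum consisted of 2 intronic peaks, 27.8 and 21.8 kb downstream of the main TSS, with 9.50 and 4.46 CPM in Ctrl and 4.47 and 11.3 CPM in KO. The genotypes overlapped, and the difference of 0.21 (SE 0.74) turned to -0.24 without Ctrl replicate 2 and -0.64 without KO replicate 2. Most of the signal within 50 kb was not its own: 13.9% of the counts were nearest to Il12rb2, and the highest peak was at an exon of Serbp1 (67265974 to 67268785). That peak held 67.9 and 45.2 CPM in Ctrl and 44.7 and 55.6 CPM in KO. The window held 138 and 104 CPM in Ctrl and 107 and 101 CPM in KO, a difference of -0.21 (SE 0.24). It was 0.0019 without Ctrl replicate 1 and 0.26 (SE 0.45) when peaks nearest to other genes were left out.

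Cxcr3 (ENSMUSG00000050232.6, chromosome X, 101731535 to 101734269, minus strand) was marked over the gene itself. Its 5 promoter peaks took in nearly all of this short gene and held 65.6% of the CPM of the window, and the other 4 peaks lay 30.7 to 46.6 kb upstream. The promoter sequence (RefSeq on GRCm38.p6, chrX:101734098-101734397, minus strand, printed in the direction of the gene) is shown because all 300 of its bases lay inside the peak over the TSS. Capitals mark 2 matches to the Runx motif, TGTGGT, both on the strand opposite to the gene.
Cxcr3 promoter: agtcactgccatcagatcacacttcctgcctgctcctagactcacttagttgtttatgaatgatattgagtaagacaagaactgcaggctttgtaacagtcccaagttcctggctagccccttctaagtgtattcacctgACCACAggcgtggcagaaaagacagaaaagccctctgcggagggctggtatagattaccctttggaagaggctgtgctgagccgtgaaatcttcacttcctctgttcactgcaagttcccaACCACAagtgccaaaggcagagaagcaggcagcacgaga

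Over its promoter peaks Cxcr3 held 48.9 and 53.6 CPM in Ctrl and 67.4 and 71.6 CPM in KO. The lower KO library was above the higher Ctrl library, and the gap between genotypes was wider than the gap within either. The difference was 0.44 (SE 0.26, 95% interval -0.14 to 1.02), with an unadjusted p of 0.12 and an adjusted p of 0.999 in edgeR. It lay between 0.36 and 0.51 when any 1 library was left out. In the window the levels were 82.3 and 80.1 CPM in Ctrl and 102 and 103 CPM in KO, a difference of 0.33 (SE 0.22). Cells of both sexes had been pooled, and chromosome X took 1.29% and 1.09% of the counts in Ctrl and 1.21% and 1.12% in KO, ranges that overlapped. Scaled to the total of chromosome X, the difference was 0.40 at the promoter and 0.30 in the window.

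The 5 promoter peaks of Cxcr3 were higher in KO with 1 exception. The highest lay over exon sequence at the 3′ end of the gene (101730904 to 101733058), with 13.6 and 19.9 CPM in Ctrl and 25 and 24.0 CPM in KO, a difference of 0.53 (SE 0.39). The peak over the TSS (101733328 to 101734420) held 9.05 and 11.9 CPM in Ctrl and 12.3 and 14.6 CPM in KO, a difference of 0.35 (SE 0.48). In both, and in 2 more promoter peaks, the KO libraries were above the Ctrl libraries, as at 16.9% of all tested peaks. The 5 peaks lie side by side and are not independent. The fifth, 1.9 kb upstream, was the smallest, with 3.17 and 3.87 CPM in Ctrl and 2.24 and 2.88 CPM in KO.

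**Figure D2:**
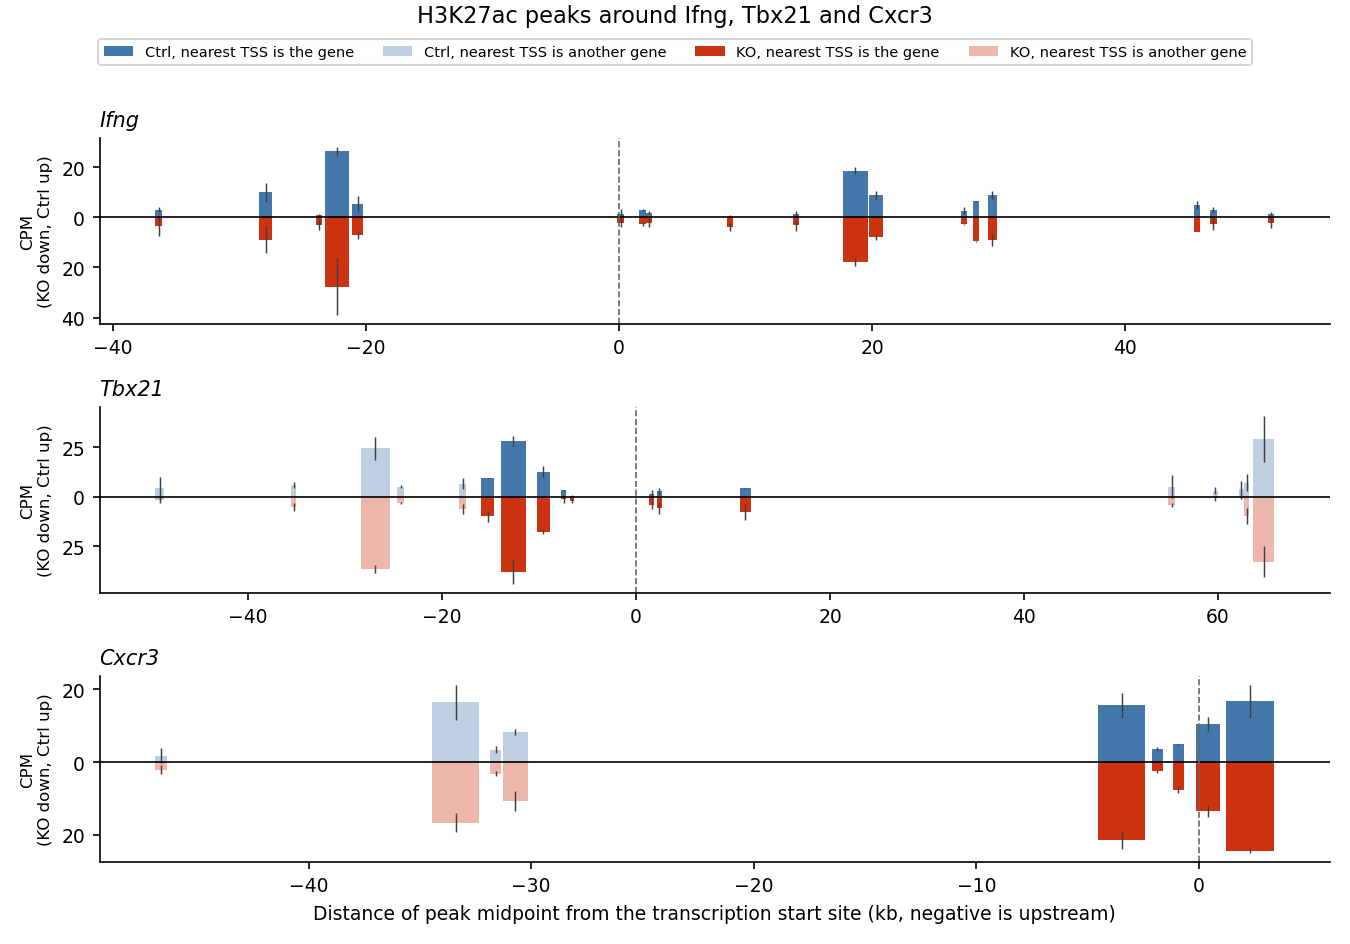
Peaks around Ifng, Tbx21 and Cxcr3 by the distance of their midpoint from the TSS in kb, with mean CPM of Ctrl drawn upward in blue and of KO downward in red, bars as wide as the peak (at least 0.5 kb), error bars of 1 SD (n = 2) and pale bars for peaks nearest to another gene. The Ifng signal stands mostly at 22.3 kb upstream and 18.7 kb downstream, that of Tbx21 upstream of an unmarked TSS, and that of Cxcr3 over the gene itself.

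Tbx21, encoding T-bet (ENSMUSG00000001444.2, chromosome 11, 97098071 to 97115331, minus strand), had no peak over its TSS. The nearest peaks were 2 small ones in the first kilobases of the gene, 1.6 and 2.4 kb downstream. The promoter (RefSeq on GRCm38.p6, chr11:97115282-97115581, minus strand, printed in the direction of the gene) is shown because none of its bases was inside a peak. It held no match to the T-box motif GGTGTGA, the Runx motif or the STAT motif, so it has no capitals. The central 300 bases of the highest Tbx21 peak (chr11:97127831-97128130, minus strand), 12.6 kb upstream, are shown beside it and likewise held no match.
Tbx21 promoter: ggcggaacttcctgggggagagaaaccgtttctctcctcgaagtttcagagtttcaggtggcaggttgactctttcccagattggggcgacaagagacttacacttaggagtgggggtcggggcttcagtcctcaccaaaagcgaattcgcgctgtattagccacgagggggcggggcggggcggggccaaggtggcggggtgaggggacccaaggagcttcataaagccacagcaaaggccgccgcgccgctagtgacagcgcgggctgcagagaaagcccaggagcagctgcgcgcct
Tbx21 upstream peak: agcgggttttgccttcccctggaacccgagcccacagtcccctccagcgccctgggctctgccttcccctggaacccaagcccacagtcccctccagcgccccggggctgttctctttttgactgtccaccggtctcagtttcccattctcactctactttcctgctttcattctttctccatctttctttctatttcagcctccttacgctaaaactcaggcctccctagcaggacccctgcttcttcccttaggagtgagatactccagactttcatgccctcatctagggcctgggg

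The Tbx21 gene itself was weakly marked and was higher in both KO libraries. Over its promoter and gene body peaks it held 8.14 and 8.93 CPM in Ctrl and 11.2 and 24.0 CPM in KO. Both KO libraries were above both Ctrl libraries, with most of the difference in KO 2. The log2 fold change was 1.05 (SE 0.53, 95% interval -0.14 to 2.24), the largest of the 6 sums, with an unadjusted p of 0.0782 and an adjusted p of 0.999 in edgeR. Without KO replicate 2, the deepest library, it was 0.35, and without KO replicate 1 it was 1.47. The counts behind it were few, since the 3 peaks summed to 18 and 30 counts in Ctrl and 30 and 100 counts in KO.

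Most of the Tbx21 signal lay upstream, towards Tbkbp1. The highest peak (97126650 to 97129310, between genes) held 29.9 and 26.5 CPM in Ctrl and 42.5 and 33.8 CPM in KO, and its neighbour 9.6 kb upstream held 10.9 and 14.6 CPM in Ctrl and 16.8 and 18.4 CPM in KO. In both, the KO libraries were above the Ctrl libraries, by 0.43 (SE 0.34) and 0.46 (SE 0.44). The peak 15.3 kb upstream overlapped, with 9.05 and 9.52 CPM in Ctrl and 7.82 and 12.0 CPM in KO. A larger peak in an intron of Tbkbp1, 26.9 kb upstream and nearest to that gene, held 20.4 and 28.6 CPM in Ctrl and 35.0 and 37.9 CPM in KO.

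The window of Tbx21 as a whole held 126 and 187 CPM in Ctrl and 165 and 211 CPM in KO, which overlapped, and 42.8% of its counts were nearest to Tbx21. The difference was 0.26 (SE 0.26), -0.0045 without Ctrl replicate 1, 0.035 without KO replicate 2, 0.58 without Ctrl replicate 2 and 0.41 without KO replicate 1. Restricted to the 8 peaks nearest to Tbx21, the levels were 61.1 and 63.7 CPM in Ctrl and 79.7 and 93.7 CPM in KO. Here the KO libraries were both above the Ctrl libraries, with a difference of 0.48 (SE 0.25, unadjusted p = 0.0895, adjusted p = 0.9998 in edgeR). The 5 downstream peaks, all at Osbpl7, held 28.5 and 67.9 CPM in Ctrl and 38.0 and 58.7 CPM in KO.

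Eomes, a T-box factor known from memory CD8 T cells and natural killer cells (ENSMUSG00000032446.14, chromosome 9, 118478212 to 118486132, plus strand), had no peak in its promoter or gene body. Its nearest peak was 11.4 kb downstream. The 13 peaks of its window were 286 to 683 bases wide, 9 of them nearest to Golga4, and the highest of the 7 that passed the count limit exceeded 58.3% of tested peaks. The window held 59.3 and 35.4 CPM in Ctrl and 62.6 and 27.6 CPM in KO. Replicate 1 was the higher library in both genotypes, and the difference of -0.07 (SE 0.45) was smaller than its SE. It was 0.33 without Ctrl replicate 1, 0.39 without KO replicate 2 and 0.0062 with a loess offset on abundance. The highest peak, at an exon of Golga4, held 8.60 and 5.06 CPM in Ctrl and 10.8 and 3.59 CPM in KO.

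Runx3, the Runt factor that acts with T-bet at Ifng (ENSMUSG00000070691.10, chromosome 4, 135120652 to 135177990, plus strand), was marked throughout, with 38 peaks of which 37 were nearest to Runx3 itself. It has an upstream and a downstream promoter. The upstream one is shown (RefSeq on GRCm38.p6, chr4:135120395-135120694, plus strand) because 222 of its 300 bases were inside a peak and it held 2 matches to the Runx motif, in capitals and on the strand opposite to the gene.
Runx3 promoter: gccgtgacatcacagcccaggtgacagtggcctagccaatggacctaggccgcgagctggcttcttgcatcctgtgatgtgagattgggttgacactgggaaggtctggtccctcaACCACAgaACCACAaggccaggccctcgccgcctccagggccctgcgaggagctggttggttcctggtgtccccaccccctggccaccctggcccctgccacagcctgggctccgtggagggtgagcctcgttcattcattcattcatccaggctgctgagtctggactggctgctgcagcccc

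The peak at the upstream promoter (135119381 to 135120616) ended just before the TSS and held 17.2 and 17.9 CPM in Ctrl and 21.6 and 21.3 CPM in KO. The KO libraries were above the Ctrl libraries, by 0.29 (SE 0.40). The larger domain at the downstream promoter (135152862 to 135156313) held 25.8 and 42.6 CPM in Ctrl and 42.1 and 52.2 CPM in KO, which overlapped slightly, a difference of 0.46 (SE 0.32). The 4 promoter peaks together held 53.4 and 74.7 CPM in Ctrl and 78.6 and 93.9 CPM in KO, with both KO libraries higher. The 11 gene body peaks held 81.0 and 127 CPM in Ctrl and 87.9 and 131 CPM in KO, where the replicates differed more than the genotypes. Promoter and gene body together gave 0.22 (SE 0.27), -0.052 without Ctrl replicate 1, -0.052 without KO replicate 2 and 0.55 without Ctrl replicate 2.

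The highest Runx3 peak lay 17 kb upstream (135102486 to 135104817) and held 29.4 and 52.1 CPM in Ctrl and 29.8 and 61.1 CPM in KO, with replicate 2 the higher library in both genotypes. Of the 3 member peaks with an unadjusted p under 0.05, 2 lay further upstream of Runx3, between genes. The one 22.3 kb upstream (135097505 to 135099180) held 5.88 and 12.5 CPM in Ctrl and 19.7 and 19.9 CPM in KO, a difference of 1.07 (SE 0.45, unadjusted p = 0.0185 in edgeR), 0.66 without Ctrl replicate 1 and 1.75 without Ctrl replicate 2. The one 48.1 kb upstream (135072107 to 135072924) held 4.52 and 3.27 CPM in Ctrl and 6.33 and 12.0 CPM in KO, a difference of 1.26 (SE 0.64, unadjusted p = 0.0479 in edgeR), and 0.68 without KO replicate 2. Both had an adjusted p of 0.998. The widest fold in the other direction, chosen after its values were seen, was a small intronic peak 9.8 kb downstream of the TSS with 13 and 13 counts in Ctrl and 4 and 3 counts in KO. It passed the count limit through its Ctrl libraries alone. The window of Runx3 held 324 and 440 CPM in Ctrl and 383 and 533 CPM in KO, which overlapped, a difference of 0.26 (SE 0.26), -0.032 without KO replicate 2 and 0.12 with a loess offset.

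**Figure D3:**
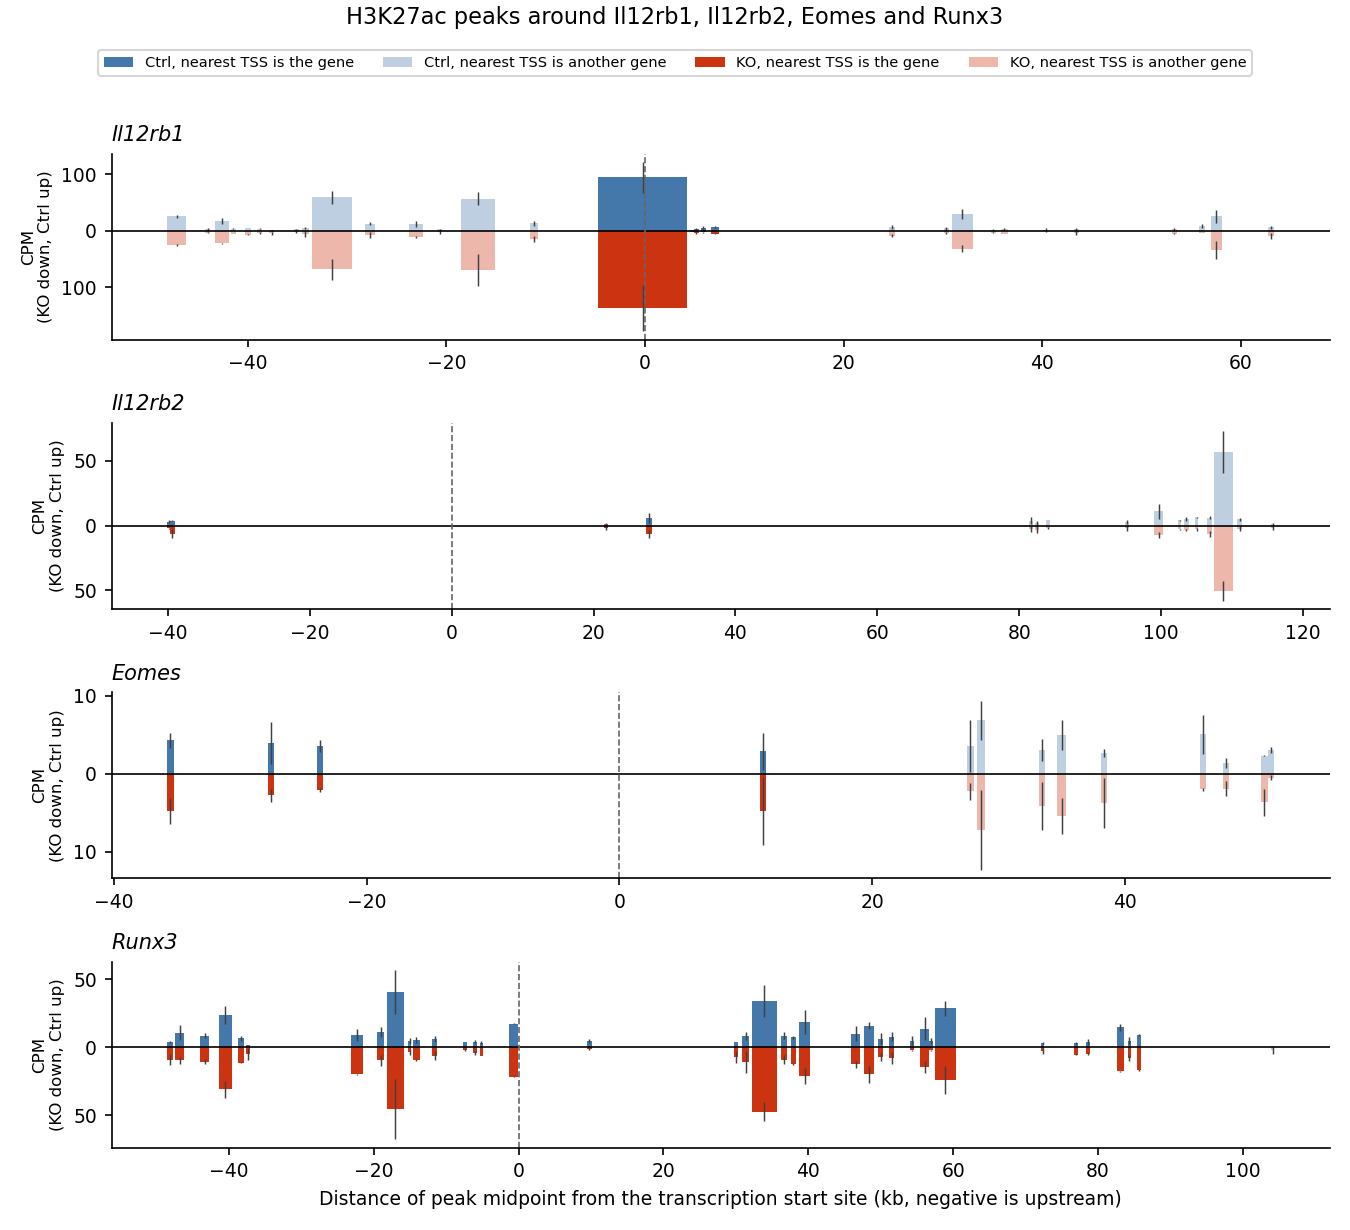
Peaks around Il12rb1, Il12rb2, Eomes and Runx3, drawn as in the plot for Ifng, Tbx21 and Cxcr3, with a separate CPM scale for each gene. A single domain of up to 166 CPM in a library stands over the start of Il12rb1, Runx3 is marked along its length, and no peak stands at the start of Il12rb2 or Eomes.

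Levels were compared between genes per kb of peak, using the peaks nearest to each gene. The order of the mean over 4 libraries was Il12rb1 (12.0 CPM per kb), Runx3 (11.5), Cxcr3 (9.89), Ifng (9.66), Tbx21 (9.30), Eomes (9.11) and Il12rb2 (7.45). No neighbours in this order were separated, since the ranges of the libraries overlapped for each pair. Among 13898 genes tested in this way, Il12rb1 was above 75% and Il12rb2 above 27.2%. The members differed more in the length covered by peaks than in this density, from 1.59 kb for Eomes to 36.5 kb for Runx3. A peak over a TSS was found at 3 of 7 members, namely Ifng, Il12rb1 and Cxcr3, and at 44.0% of all protein-coding genes. The peak over the Ifng TSS was below the limit for testing. Runx3 had peaks that ended 36 and 18 bases before its upstream and downstream TSS. Within 3 kb of a TSS, 5 of 7 members had a peak, against 57.6% of all protein-coding genes.

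Across the members, 5 of 7 windows and 6 of 6 promoter and gene body sums were higher in KO. With any 1 library left out, these became 4 to 6 windows and 4 to 5 sums. Over all peaks within the gene spans alone (0 kb windows), 5 of 6 tested members were higher, with Il12rb2 at -0.085. The KO libraries both exceeded the Ctrl libraries in 2 of 7 windows, Cxcr3 and Il12rb1, where 10.6% of all windows did so, and in 2 of 6 sums, Tbx21 and Cxcr3, where 13.2% of all sums did so. The median difference of the 6 sums was 0.33, against -0.016 over all genes. The 2 windows with the most signal, Il12rb1 and Runx3, were in the highest of 10 equal classes of windows by abundance, and in that class 88.4% of windows were higher in KO. Ifng and Il12rb2 were in the sixth class, where 38.5% of windows were higher, Cxcr3 in the fifth (37.2%) and Tbx21 in the seventh (44.4%). Among the sums, Runx3 was in the highest of 10 such classes, where 68.5% of sums were higher in KO. The other tested members were in classes of sums where 43.8% to 49.1% were higher.

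**Figure D4:**
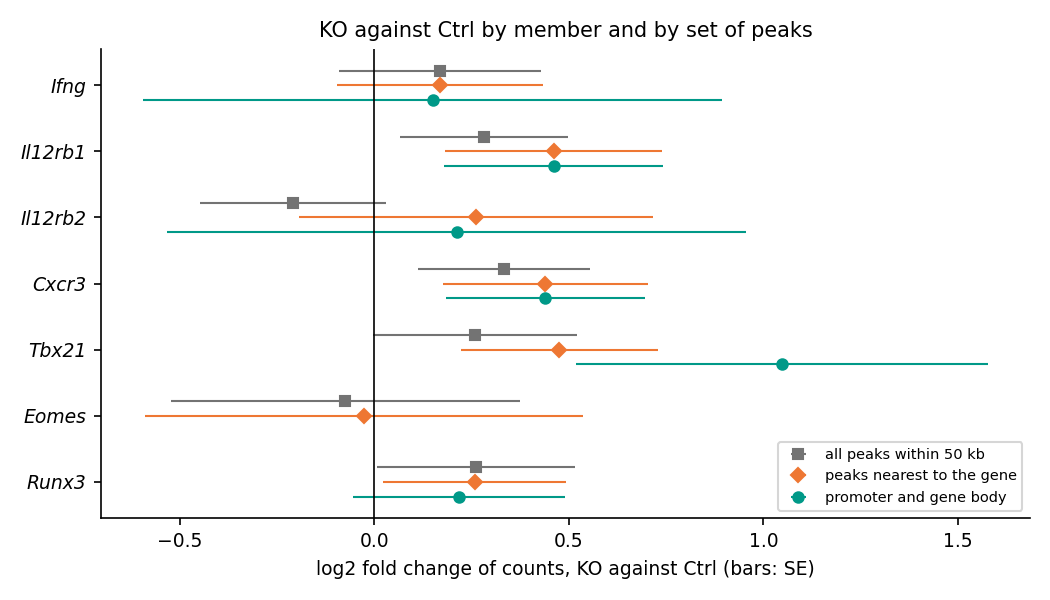
Log2 fold change of KO against Ctrl with its SE for each gene over all peaks within 50 kb (squares), the peaks nearest to the gene (diamonds) and its promoter and gene body peaks (circles). Most points are to the right of 0 with SE bars of 0.22 to 0.74, the windows of Il12rb2 and Eomes are to the left, and Tbx21 moves from 0.26 to 1.05 as the set narrows to the gene.

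Of the 113 tested member peaks, 75 were higher and 38 lower in KO, which is 66.4% higher against 49.2% of all tested peaks, with a median of 0.16 against -0.012. This share was 57.0% without KO replicate 2. By gene, 25 of 35 Runx3 peaks, 18 of 24 Il12rb1 peaks, 9 of 15 Tbx21 peaks, 8 of 11 Ifng peaks, 6 of 8 Cxcr3 peaks and 6 of 7 Eomes peaks were higher, while 10 of 13 Il12rb2 peaks, mostly those at Serbp1, were lower. A further 6 of the 13 Eomes peaks were not tested, and the Eomes window as a whole was at -0.07. The KO libraries were both above the Ctrl libraries at 26 member peaks, where 16.9% of all tested peaks were, and both below at 13, where 16.4% were. Peaks within 1 window share their chromatin and are not independent. Peaks of higher abundance tended to be higher in KO throughout the genome, from 44.0% in the lowest of 10 classes to 74.2% in the highest, and of the member peaks 4 of 8 were higher in the lowest class and 7 of 8 in the highest. In the classes between, the members lay below the share of all peaks in the second class and above it from the third to the ninth. They were at 3 of 13 in the second class, where 42.4% of all peaks were higher. They were at 4 of 6 in the third (42.1%), 6 of 12 in the fourth (43.0%) and 8 of 9 in the fifth (42.6%). Further up they were at 11 of 14 in the sixth (44.6%) and 12 of 17 in the seventh (47.7%). In the eighth and ninth they were at 7 of 10 (52.3%) and 13 of 16 (59.4%). These shares were not tested against each other.

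**Figure D5:**
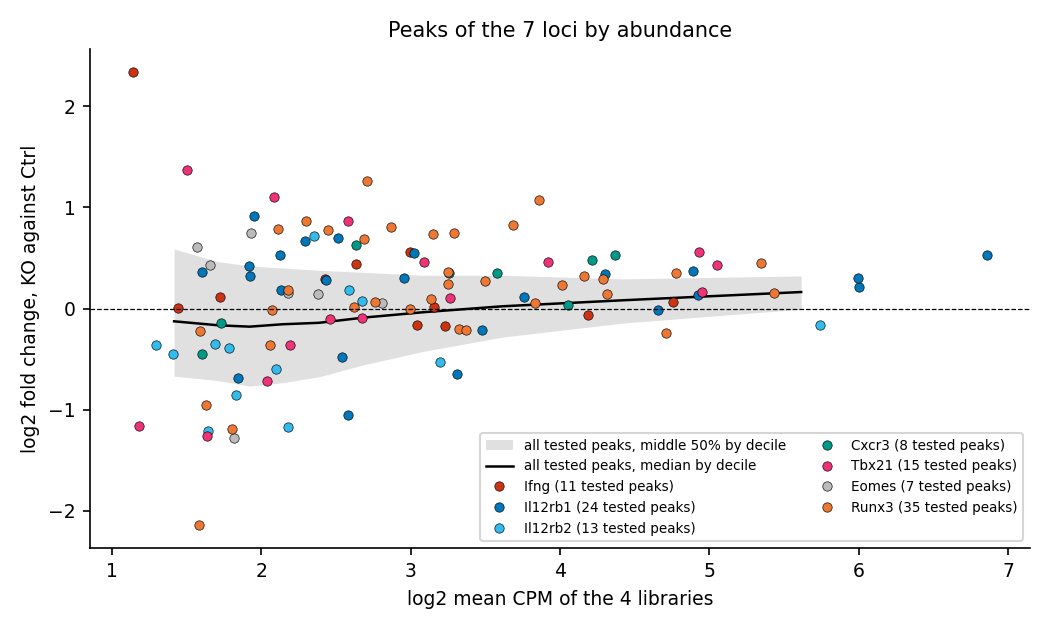
Log2 fold change of KO against Ctrl for each tested member peak by its log2 mean CPM, with the median (line) and the middle 50% (shading) of all tested peaks by class of abundance (10 equal classes). The genome-wide median climbs from -0.18 in the third class to 0.16 in the highest, and member peaks scatter on both sides of it.

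The remaining genes of the pathway were read from a list of 26 genes (signal transducers such as Stat4, Jak1, Jak2, Tyk2 and Socs1, receptors, chemokines, effector genes and transcription factors). All 26 had peaks and 24 were higher and 2 lower in KO in promoter and gene body sums, with a median of 0.21, where 48.3% of all sums were higher. None passed adjustment in edgeR, and 2 of 26 had an unadjusted p under 0.05, against 3.29% of all sums. By abundance, the share of all sums higher in KO was 68.5% in the highest of 10 classes and 43.4% to 49.1% in the others. The part of abundance in the counts of this list was not tested. Cxcr6, a chemokine receptor of tissue-resident T cells, held 128 and 123 CPM in Ctrl and 175 and 196 CPM in KO, a difference of 0.57 (SE 0.22, unadjusted p = 0.031 in edgeR). Cbfb, the partner subunit that Runx3 and Runx1 need to bind DNA, was lower, with 53.8 and 54.5 CPM in Ctrl and 30.2 and 30.7 CPM in KO, a difference of -0.83 (SE 0.28, unadjusted p = 0.015 in edgeR). The libraries of Cbfb were close within each genotype, and its adjusted p was 0.999. Its sum was over 11 peaks, none over its TSS, at 7.89 CPM per kb against a median of 9.71 over all genes. The widest difference upward was at Gzma, a granzyme, with 1.81 and 3.27 CPM in Ctrl and 7.08 and 2.40 CPM in KO, which overlapped.

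The lists for other helper programs were read in the same way. In the type 2 list 5 of 6 tested genes were higher in KO, with a median of 0.12, from Il4 at -0.45 (SE 0.45) to Gata3, its lineage factor, at 0.41 (SE 0.21). In the type 17 list 4 of 5 were higher, with a median of 0.24, from Maf at -0.18 (SE 0.26) to Il23r at 0.68 (SE 0.75). Il13, Il17a and Il17f had no peak of their own. All 5 Treg markers were higher in KO, with a median of 0.35. The difference between these lists and the type 1 genes was not tested. Both KO libraries were above both Ctrl libraries at 8 of the 26 pathway genes, 2 of the 6 type 2 genes, 3 of the 5 type 17 genes and 4 of the 5 Treg genes, and at 13.2% of all 12731 sums.

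The genes whose 4 library levels were closest to those of Cxcr3 in promoter and gene body sums, by Euclidean distance of log2(CPM + 0.5), were Man2a2 (distance 0.042), Gimap9 (0.12) and Ccdc28a (0.12). For Tbx21 they were Dbh (0.39), Gm11034 (0.43) and Grik4 (0.55), and for Ifng they included Nhsl1 (0.23) and Lefty1 (0.30). This likeness rests on the same 4 libraries as the other results.

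Matches to 3 short motifs were counted on both strands, where matches to different motifs may overlap. In the whole peaks of the members, the T-box motif GGTGTGA occurred 0.24 times per kb, against 0.17 over all peaks, the Runx motif TGTGGT 1.10 times, against 0.94, and the STAT motif TTCNNNGAA 0.25 times, against 0.30. The Ifng peaks held 6 T-box matches (0.51 per kb) and 18 Runx matches (1.52 per kb), while the Tbx21 peaks held 3 and 16 (0.17 and 0.89 per kb). Among RefSeq promoters of 300 bases, 3.98% held the T-box, 16.8% the Runx and 8.30% the STAT motif. Of the 6 members with a RefSeq promoter entry, the upstream promoter of Runx3 and that of Cxcr3 each held 2 Runx matches and those of Ifng and Il12rb2 each held 1 STAT match.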

How the data were processed

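H3K27ac CUT&Tag was carried out on 4 libraries of sorted large intestinal Treg cells. Per the methods, the authors used Bowtie2 on mm10 after trimming, kept unique reads, removed duplicates with MarkDuplicates, called peaks with MACS2 at p 0.01 against IgG and merged them with bedtools; tool versions are not given in the sources used here. The deposited values are raw counts per merged peak, not normalized. Peaks were called on the libraries that were then compared, so the set depends on their signal.

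Counts were summed per 50 kb window of each protein-coding gene, and per gene over promoter (within 3 kb of a TSS) and gene body peaks, each peak assigned to 1 gene. Features reaching 10 counts in 2 or more libraries were tested with edgeR 4.0.16 in R 4.3.3 (quasi-likelihood, TMM factors of the tested peaks, no covariate), and adjusted over all features of a kind. The prior degrees of freedom were infinite for peaks: a single peak's replicate spread did not enter. Per the methods, each library was a biological replicate pooled from several mice, and the Ctrl and KO mice are called littermates. Which libraries share a litter is not given. The members and gene lists were chosen with earlier results of these data known. Named were all members, of their peaks the one at the TSS, the highest and those with an unadjusted p under 0.05, and list genes with the same p or the extreme fold; other peaks with values were chosen after their values were seen. Some items that the rule names are not reported here. The code was tested on simulated data. Alternatives were DESeq2 1.42.0, its size factors in edgeR, total counts, a loess offset, other count limits and windows, halved counts, a robust fit, a replicate block, omission of each library and handling of chromosomes X and Y.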

Additional observations from a re-analysis of the deposited data

How the results depend on the processing

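No member passed an adjusted p under 0.05 in any alternative run, other than the replicate block. With the replicate number as a block, edgeR called 2 member windows, Il12rb1 (0.28, adjusted p = 0.0067) and Runx3 (0.26, adjusted p = 0.017), among 15.2% of all windows, and 1 member sum, Il12rb1 (0.46, adjusted p = 0.030), among 5.84% of all sums. It called 0 of 113 member peaks, against 0.283% of all 74550 peaks. The methods call the Ctrl and KO mice littermates, but the labels do not say that equal numbers share a litter or day. The correlation of the replicate differences of Ctrl and KO over 74550 peaks was 0.25. Low counts per peak weaken such a correlation, so pairing is not settled and the block stands as an alternative.

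With at least 50 counts, 3 member sums remained to be tested and all 3 were higher in KO; factors from those peaks shifted the median of all windows to -0.12. The Eomes window was 0.0062 with the loess offset and 0.74 with a 10 kb window, and the Il12rb2 window was 0.26 with the peaks nearest to the gene. Leaving out each library gave 4 to 6 of 7 windows, 4 to 5 sums and 57.0% to 66.7% of member peaks higher in KO. The window differences then lay between -0.0045 and 0.58 for Tbx21, -0.15 and 0.39 for Ifng, -0.40 and 0.0019 for Il12rb2, -0.79 and 0.39 for Eomes and -0.032 and 0.51 for Runx3, and the sums between -0.29 and 0.68 for Ifng, -0.64 and 0.82 for Il12rb2 and -0.052 and 0.55 for Runx3. Cxcr3 and Il12rb1 were higher in KO under every alternative that gave them a value. Of unadjusted calls over all peaks, 34.1% were higher in KO with TMM and 23.4% with total counts; the split of all sums moved from 20.3% to 9.98% with total counts and 29.7% with the loess offset, and that of all windows from 10.2% to 2.97% and 26.1%. The cause was not tested. With 2 libraries per genotype and a median of 8 to 13 counts per peak, the SE of a member window was 0.22 to 0.45, and differences of the size seen here did not pass the test without the block.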
